A study of Mus musculus with 167 samples.

Results

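CC040 tumours are asbestos-induced tumours of mice whose father was of CC040, a line of the Collaborative Cross, a panel of inbred mice bred from several founder strains. The members were chosen by strain label and column name, and they are 4 tumours from 4 mice (D3, E1, E4 and H1) among the 167 tumours, 119 mice and 35 strains of the series. They were set against 101 tumours of 71 mice from 16 strains (Boon, CC035, CC044, CC046, CC053, CC059, CC060, CIS, KAV, LAT, LOX, MEE, Rogan, TAS, VUX and YID), with 3 to 7 mice a strain. Another 6 tumours labelled with those strains were left out by the same rule, which holds their strain in doubt (their titles and columns match, and the doubt was not tested again here), and 56 tumours of 44 mice from 18 further strains entered only an alternative.

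Every mouse, CC040 and other strains alike, was a first-generation cross of a Collaborative Cross male with a MexTAg female and so carried 1 set of autosomes from each side. In MexTAg mice the mesothelin promoter drives the large T antigen of a simian polyomavirus, which inactivates p53 and Rb, in the mesothelial cells that line the body cavities. All mice were given 2 intraperitoneal injections of 3 mg crocidolite asbestos a month apart and are labelled as otherwise untreated, per the labels' protocols. Age was not analysed here, and sex entered only through the level of sex-linked genes, in a gene list and an alternative fit. By the labels, D3, E1 and E4 were above and H1 below median survival, as were 49 and 22 of the 71 other mice. Whole tumours were homogenised, so tumour cells, stroma and immune cells were measured together, and fewer cells of a type and less RNA per cell cannot be told apart. RNA was read as estimated counts of reads per gene, 13879373 to 25074252 per CC040 tumour and 11138491 to 35399287 per tumour of the other strains. The tumours of a mouse were summed, and levels are given as CPM, read counts relative to library depth after TMM scaling, 1 value per mouse.

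Mesothelioma occurs in epithelioid forms, which keep keratins and mesothelial surface proteins, and in sarcomatoid forms, in which mesenchymal genes prevail. The 3 genes given as markers of the CC040 tumours touch on this and on immunity. S100a4 encodes a calcium-binding protein of motile and mesenchymal cells, Axl a receptor tyrosine kinase of the TAM family that is tied to the mesenchymal state, and Mx2 a GTPase that type I interferon induces against viruses. Interferons act through STAT and IRF factors on a short response element in the promoters of their target genes, and among these targets are guanylate-binding proteins and the Ifi200 family of DNA sensors.

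Of the 3 markers, S100a4 passed the test and Axl and Mx2 did not. S100a4 (ENSMUSG00000001020, chr3:90603771-90606045 in GRCm38) stood at 745 CPM in D3, 1754 in E1, 1881 in E4 and 1152 in H1, against 12.3 to 1514 CPM (median 207) in the 71 other mice. All 4 CC040 tumours were above the median of the others and the groups overlapped, with E1 and E4 above all 71 other mice and 9 of those mice above D3. The log2 fold change was 2.11 ± 0.58 (± SE, edgeR, adjusted p = 0.0349), and the CC040 mean was the highest of the 17 strains. The call needed all 4 CC040 mice: without 1 of them the adjusted p lay between 0.0645 and 0.174, while the fold change stayed between 1.92 and 2.28. Within the high and the low range of library numbers, described below, it was 2.64 and 2.34 (adjusted p of 0.325 and 0.154). It also missed the threshold without strain CC059, KAV or MEE (adjusted p of 0.0635, 0.0588 and 0.0527) and without the 18 libraries in which another tissue takes over 1% of counts (adjusted p = 0.0528). With no filter on low counts the adjusted p was 0.0540, and within mice above median survival it was 0.164. Axl measured 780.4 CPM in D3, 777 in E1, 695 in E4 and 881 in H1, against 92.5 to 1119 CPM (median 493) in the other mice. Its 4 CC040 values lay close together, inside the range of the others, and the fold change was 0.61 ± 0.37 (adjusted p = 0.273). Mx2 was at 0.586 CPM in D3, 1.34 in E1, 2.65 in E4 and 2.21 in H1, against 0.596 to 176 CPM (median 4.60) in the other mice. D3 was below all 71 others, and 18 of them were below E4, the highest CC040 tumour. The fold change was -3.46 ± 1.47 in edgeR (adjusted p = 0.148), limma-voom at an adjusted p of 0.426 and DESeq2 at 0.00643.

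**Figure D1:**
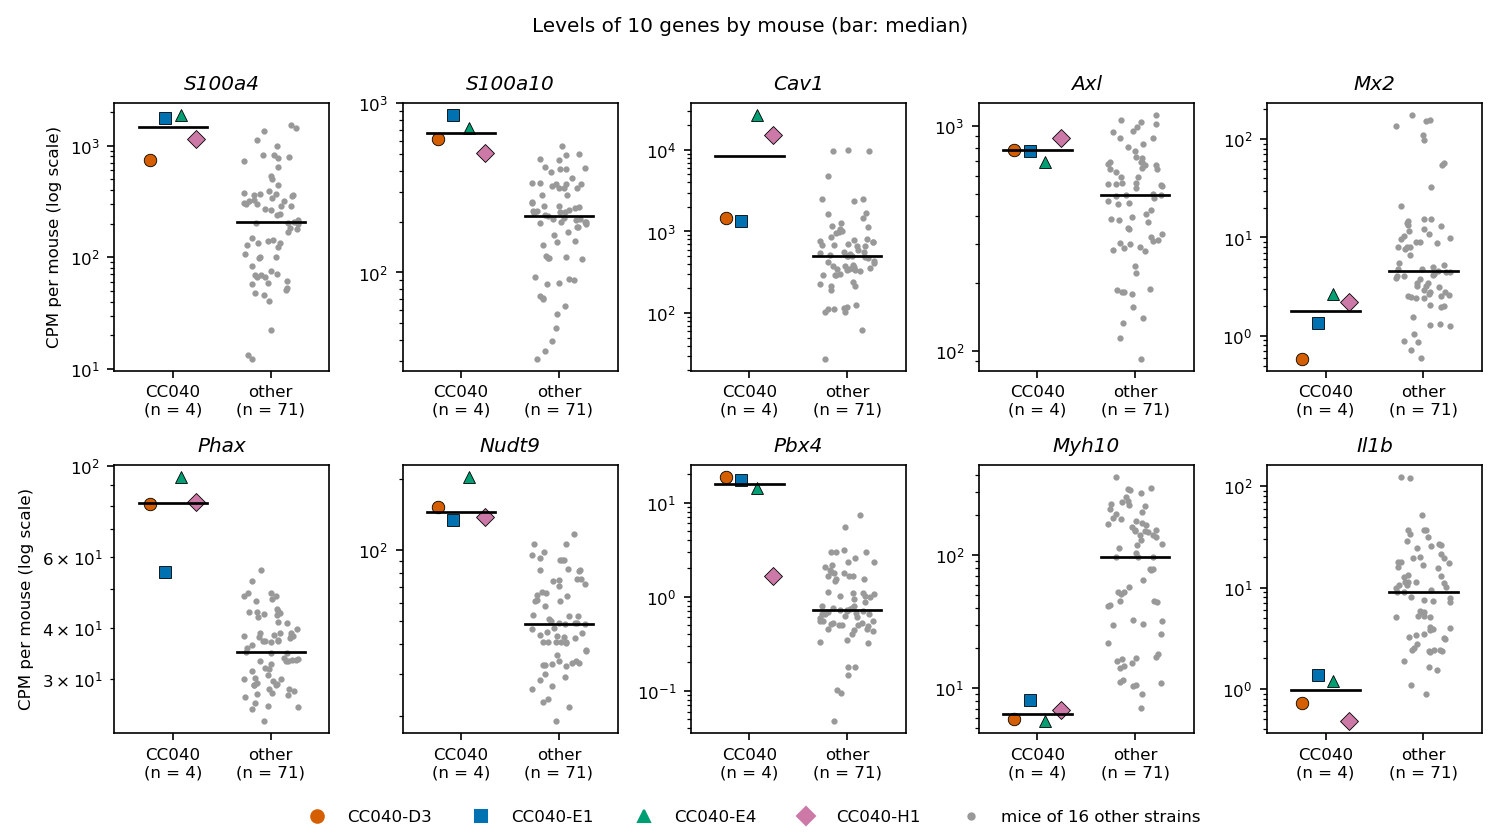
CPM per mouse on a log scale for 10 genes, with the 4 CC040 mice on the left of each panel, the 71 mice of 16 other strains on the right and a bar at each group's median. The CC040 mice lie above all others for Nudt9, with 1 other mouse above the lowest CC040 mouse for Phax and S100a10, and in the low range of the others for Myh10, Il1b and Mx2.

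Of 19628 genes tested, 315 were higher in CC040 tumours (1.6%) and 127 lower (0.647%), together 442 (2.25%), at a Benjamini-Hochberg adjusted p of 0.05. The median log2 fold change of all genes tested was -0.15, and at an unadjusted p under 0.05 there were 1861 genes higher (9.48%) and 3188 lower (16.2%). These calls rest on 4 mice. Without each CC040 mouse in turn 88 to 169 genes were higher and 10 to 39 lower, the least without H1 (88 and 10) and E4 (93 and 11), and 12 of the 315 and 4 of the 127 were called in all 4 of these fits. Without each CC040 mouse, 301 of the 315 and all 127 kept their direction. These fits share the remaining CC040 mice with the fit that chose the genes, so this cannot show how steady the direction is. Library numbers in the titles part the mice into a high range (CC040 mice D3 and H1 with 11 others) and a low range (E1 and E4 with 60 others). The fit within the high range called 23 genes higher and 2 lower and within the low range 105 and 9. Of the 315 genes 279 had the pooled direction in both parts, and of the 127 genes 119 did. Both parts belong to the data that chose the genes, so the shared direction is no separate check.

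Against each of the 16 strains separately, 2 genes were higher in CC040 in every contrast (0.0102%) and 1 was lower (0.00509%). Phax (ENSMUSG00000008301, chr18:56562443-56587712), which carries small nuclear RNA precursors out of the nucleus, stood at 80.7 CPM in D3, 54.97 in E1, 94.0 in E4 and 81.5 in H1, against 23.7 to 55.5 CPM (median 35.0) in the others. One mouse of strain Rogan, at the top of that range, was above E1, and no other mouse reached any CC040 tumour. Its fold change was 1.11 ± 0.14 (adjusted p = 5.87e-08), the smallest of the 16 contrasts was 0.96 and the call held without each CC040 mouse (adjusted p of at most 3.83e-05). Pbx4 (ENSMUSG00000031860, chr8:69832491-69872292), a homeodomain transcription factor of the TALE class, was at 18.7 CPM in D3, 17.6 in E1, 14.3 in E4 and 1.67 in H1, against 0.0478 to 7.43 CPM (median 0.729) in the others. D3, E1 and E4 were above all 71 other mice and H1 was not, with a fold change of 3.47 ± 0.45 (adjusted p = 1.56e-07). Without E4 neither Phax nor Pbx4 passed in all 16 contrasts, and Pbx4 did not without D3 or without E1. The gene that was lower in every contrast was Crb1, an apical polarity protein, named here after its values were seen, and without a CC040 mouse it passed only where H1 was the one left out. It was listed at 0 in D3, E1 and E4 and at 0.0539 CPM in H1, under the level that 3 counts give, against 0.0364 to 0.982 CPM (median 0.282) in the others.

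Genes whose 4 CC040 tumours all lay above all 71 other mice numbered 5 (0.0255%), and 1 gene lay below them all (0.00509%). They were named by that count, after their values were seen. Nudt9 (ENSMUSG00000029310, chr5:104046306-104065379), a hydrolase of ADP-ribose, stood at 151.6 CPM in D3, 134 in E1, 203 in E4 and 138 in H1, against 19.1 to 116 CPM (median 48.9) in the others, with 1.52 ± 0.26 (adjusted p = 1.83e-04), and it passed against 9 of the 16 strains. Ptms, which encodes the acidic chromatin protein parathymosin, measured 791, 620.2, 638 and 760.3 CPM in D3, E1, E4 and H1, against 92.8 to 564 CPM (median 339.8). The ribosomal protein gene Rpl21 measured 574, 523, 561 and 691 CPM, against 114 to 518 CPM (median 269.9). The other two are processed pseudogenes that were near 0 in most other mice. Gm13910 was at 6.67, 9.10, 5.81 and 6.90 CPM, against a median of 0 and a highest value of 1.84 CPM, and Gm5814 at 7.18, 3.19, 4.04 and 5.12 CPM, against a median of 0.0298 and a highest value of 0.910 CPM. Reads of Rpl21 and of both pseudogenes can fall on near-identical copies elsewhere in the genome, so their levels are uncertain. The gene below all others was Phkg1, a phosphorylase kinase subunit, at 1.54, 1.94, 1.83 and 0.862 CPM, against 2.11 to 37.9 CPM (median 3.77), and it missed the threshold (-1.71 ± 0.56, adjusted p = 0.0759).

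The 12 genes of lowest p among those higher held Phax, Pbx4 and Nudt9 and 9 more. Their CC040 mice did not always move together, so the values are given by mouse. Ndst4, an enzyme that sulfates heparan sulfate chains, was at 40.1 CPM in D3, 0.690 in E1, 32.8 in E4 and 1.67 in H1, against 0.0442 to 10.003 CPM (median 0.367) in the others (4.52 ± 0.56, adjusted p = 5.87e-08). D3 and E4 were above all 71 others, and E1 and H1 were among them. Dhx34, an RNA helicase of nonsense-mediated decay, was at 32.1 CPM in D3, 124 in E1, 136 in E4 and 175 in H1, against 9.31 to 98.4 CPM (median 24.6) (2.05 ± 0.28, adjusted p = 1.22e-06), with E1, E4 and H1 above all others and 18 of those above D3. Cav1 (ENSMUSG00000007655, chr6:17306335-17341452) encodes caveolin, the coat protein of caveolae. It stood at 1459 CPM in D3, 1344 in E1, 26756 in E4 and 15374 in H1, against 27.6 to 9829 CPM (median 499) in the other mice (3.39 ± 0.62, adjusted p = 5.53e-04). E4 and H1 exceeded every other mouse and D3 and E1 lay in the upper part of the others' range (10 other mice above the lower of them), and without E4 the adjusted p was 0.114. Tshz1, a zinc finger transcription factor, was at 233 CPM in D3, 141 in E1, 348 in E4 and 353 in H1, against 24.7 to 232 CPM (median 59.8) (1.77 ± 0.32, adjusted p = 5.66e-04), with D3, E4 and H1 above all others. Hdgf, a heparin-binding growth factor, was at 369 CPM in D3, 1174 in E1, 572 in E4 and 479 in H1, against 101 to 502 CPM (median 288) (1.15 ± 0.21, adjusted p = 4.81e-04), and lost its call without E1 (adjusted p = 0.128).

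For the remaining 4 genes the fold change came mainly from 1 tumour. Dmp1, a matrix protein of bone and dentin, was at 820.0 CPM in D3, 3.45 in E1, 1.01 in E4 and 1.72 in H1, against 0.0887 to 129 CPM (median 1.03), and Tac1, the precursor of substance P, at 108 CPM in D3, 0.0863 in E1, 0 in E4 and 0 in H1, against 0 to 8.39 CPM (median 0.146). Only D3 was above the other mice for both. Their fold changes of 5.20 and 5.35 became -1.49 and -4.24 without D3. Dmxl1, a large WD-repeat protein, was at 102 CPM in D3, 38.7 in E1, 1008 in E4 and 89.6 in H1, against 14.7 to 266 CPM (median 77.1), and its 1.86 became -0.15 without E4. Pcsk2, a convertase that cleaves prohormones, was at 7.25 CPM in D3, 0.992 in E1, 34.2 in E4 and 1.02 in H1, against 0.0883 to 8.67 CPM (median 0.626), with 3.57 ± 0.44 and an adjusted p of 0.149 without E4. In each of these 4 genes a single CC040 tumour was above the other mice. Of the 12, Ndst4, Phax, Pbx4, Dhx34, Nudt9 and Tshz1 passed without each CC040 mouse in turn.

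The 12 genes of lowest p among those lower kept their direction without each CC040 mouse, and 11 of the 12 lost the call without at least 1 of them. Myh10 (ENSMUSG00000020900, chr11:68691559-68816632), the heavy chain of a nonmuscle myosin, was at 5.86 CPM in D3, 8.20 in E1, 5.68 in E4 and 6.90 in H1, against 7.07 to 388 CPM (median 97.2) in the others (-4.11 ± 1.02, adjusted p = 0.0175), and 1 other mouse was below the highest CC040 tumour. Without any 1 CC040 mouse it missed the threshold (adjusted p of at least 0.0578). Ggh, a lysosomal enzyme that trims the glutamate tail of folates, was at 3.96 CPM in D3, 2.55 in E1, 3.09 in E4 and 3.61 in H1, against 3.89 to 44.8 CPM (median 17.1) (-2.45 ± 0.51, adjusted p = 0.00359). It was lower in 15 of the 16 single-strain contrasts and the only one of these 12 to pass without each CC040 mouse (adjusted p of at most 0.0297). Tiam1, an activator of the small GTPase Rac, was at 2.56 CPM in D3, 1.42 in E1, 1.39 in E4 and 3.99 in H1, against 2.03 to 77.2 CPM (median 20.6) (-3.36 ± 0.74, adjusted p = 0.00611). Lilrb4a, an inhibitory receptor of myeloid cells, was at 9.30 CPM in D3, 13.9 in E1, 12.8 in E4 and 13.8 in H1, against 12.4 to 337 CPM (median 52.9) (-2.60 ± 0.61, adjusted p = 0.0122). Cyp4f18, a P450 of neutrophils that inactivates leukotriene, was at 1.54 CPM in D3, 2.93 in E1, 2.97 in E4 and 0.754 in H1, against 1.89 to 29.7 CPM (median 9.11) (-2.32 ± 0.57, adjusted p = 0.0155). D3 was below all 71 others for both genes, and the CC040 strain mean was the lowest of 17. Tfpi, the inhibitor of the tissue factor pathway of clotting, changed by -2.77 ± 0.70, the alpha-fucosidase Fuca2 by -1.50 ± 0.35, the kinase Sgk3 by -1.91 ± 0.48, the flippase Atp8b4 by -2.51 ± 0.61, Fam83h by -2.65 ± 0.65 and Tceanc2 by -1.33 ± 0.30 (adjusted p between 0.00883 and 0.0187). Tceanc2 divided by library number, with 3.15 CPM in D3 and 2.86 in H1, and 9.66 in E1 and 14.2 in E4. The other mice had 4.87 to 36.3 CPM (median 19.6). Its fold change was -2.64 in the high range of library numbers and -0.69 in the low range (adjusted p of 0.0860 and 0.439). The class I gene H2-Q2 fell by 4.89 on the log2 scale (adjusted p = 0.0175), but it belongs to a family of near-identical and strain-variable genes, so its count is uncertain.

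The other S100 genes were set beside S100a4. Of 14 S100 genes, which encode small calcium-binding proteins, 14 were tested. Among them 2 were higher (1.6% of all genes) and 0 lower (0.647% of all genes), with a median of 0.40 (all genes -0.15). S100a10, the partner of annexin A2 at the plasma membrane, was at 617 CPM in D3, 853 in E1, 713 in E4 and 506 in H1, against 30.9 to 556 CPM (median 216) (1.55 ± 0.38, adjusted p = 0.0146). A single other mouse, of strain CC046, was above H1. S100a6 did not pass (1059, 1974, 946 and 714 CPM in D3, E1, E4 and H1, against 35.3 to 1198 CPM (median 406), adjusted p = 0.0725), nor did S100a11 (0.89, adjusted p = 0.147). The neutrophil members S100a8 and S100a9 were at -2.16 and -2.19 and the epithelial S100a14 and S100a16 at -3.31 and -1.52, and none of these passed. The summed level of the list was 2727, 5841, 4049 and 2808 CPM in D3, E1, E4 and H1, against 179.8 to 3501 CPM in the others, with E1 and E4 above all of them. Without any 1 CC040 mouse the adjusted p of S100a10 was 0.0544 or more, the highest being 0.0878 without E1.

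Around Axl, 8 receptors and ligands of the TAM and MET families were tested and 0 passed. The TAM receptors Tyro3 and Mertk were at 0.48 and 0.29 and their ligands Gas6 and Pros1 at -1.96 and -0.39 on the log2 scale. Met, the receptor of hepatocyte growth factor, stood at 102 CPM in D3, 244 in E1, 2392 in E4 and 1677 in H1, against 2.02 to 5228 CPM (median 111) (unadjusted p = 0.0606). Its ligand Hgf was at 428 CPM in D3, 72.2 in E1, 227 in E4 and 188 in H1, against 5.55 to 331 CPM (median 44.9), with D3 above all others and an adjusted p of 0.0955.

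Mesenchymal and mesothelial genes were compared next. Of 18 mesenchymal markers 0 passed in either direction, 3 had an unadjusted p under 0.05 with a higher level (9.48% of all genes), and the median was 0.52. The intermediate filament Vim was at 5573 CPM in D3, 6383 in E1, 7266 in E4 and 5179 in H1, against 407 to 7238 CPM (median 3003) (1.03 ± 0.40, adjusted p = 0.122). E4 was above every other mouse and the CC040 mean was the highest of 17 strains. The transcription factors Twist1 and Twist2 were at 1.38 and 1.93 (adjusted p of 0.136 and 0.105). Limma-voom passed 1 of the 18 as higher, beside 315 of all 19628 genes. This was Twist2, for which D3 and E1 were above all other mice. The tumours are labelled as mesothelioma, and mesothelial markers were divided. Of 20 mesothelial markers 0 passed, 10 had an unadjusted p under 0.05 with a lower level (16.2% of all genes) and 1 with a higher one (9.48% of all genes), and the median was -3.53. DESeq2 passed 11 as lower, beside 2451 of all 19628 genes, and limma-voom 0. Wt1, a transcription factor of mesothelium, was at 0.293 CPM in D3, 1.77 in E1, 0.884 in E4 and 0.162 in H1, against 0.0991 to 730.3 CPM (median 7.07). The surface proteins Upk3b and Muc16 had 0.440, 2.59, 0.821 and 0.0539 CPM and 0, 0.561, 0.253 and 0 CPM in D3, E1, E4 and H1, against medians of 4.29 and 2.24 CPM. Calb2, which encodes calretinin, was listed at 0 in E1, E4 and H1 and at 0.0733 CPM in D3, and its median in the others was 0.0408 CPM. These 4 markers were near 0 in CC040 tumours, and their medians were low in the other mice as well. Mesothelin itself, encoded by Msln, was at 1.76 CPM in D3, 9.06 in E1, 91.1 in E4 and 37.8 in H1, against 0.644 to 1144 CPM (median 17). The keratins Krt8 and Krt18 did not follow in E1, E4 and H1, whereas in D3 both were below the median of the others. Krt8 was at 21.1 CPM in D3, 138 in E1, 1827 in E4 and 1988 in H1, against 1.96 to 1511 CPM (median 49.4) (2.46 ± 0.89, adjusted p = 0.102), with E4 and H1 above every other mouse, and Krt18 was at 39.9 CPM in D3, 606 in E1, 406 in E4 and 535 in H1, against 1.24 to 1264 CPM (median 49.7). The summed level of the 20 markers was 341, 1206, 2586 and 2857 CPM in D3, E1, E4 and H1, against 45.4 to 7343 CPM with a median of 653 in the others. E1, E4 and H1 were thus above that median and D3 below it, and most of the gap between D3 and the pair E4 and H1 was Krt8.

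Interferon-stimulated genes were low in CC040 tumours against the other strains, though few passed alone. All 20 type I interferon genes tested had a fold change below 0, with a median of -2.17 (all genes -0.15). The CC040 mean was the lowest of 17 strains for 19 of the 20, beside 3345 of all 19628 genes tested (17%). At an unadjusted p under 0.05 there were 19 lower (16.2% of all genes). At the adjusted threshold there were 0 in edgeR, 0 in limma-voom and 18 in DESeq2, which called 2451 of all 19628 genes lower. The exception in both counts was Ifit2 at -0.42 (adjusted p = 0.637). Mx1, the paralogue of Mx2, was at 1.76 CPM in D3, 5.44 in E1, 6.00 in E4 and 4.15 in H1, against 1.61 to 278 CPM (median 14.6) (-2.93 ± 1.09, adjusted p = 0.107). Both Mx genes are known to carry disabling variants in many laboratory strains, and which alleles these mice carry was not tested. Irf7, which amplifies the interferon response, was at 2.27 CPM in D3, 25.1 in E1, 14.6 in E4 and 13.8 in H1, against 7.16 to 555 CPM (median 46.3), and Usp18, which damps it, at 1.03 CPM in D3, 3.80 in E1, 1.64 in E4 and 3.07 in H1, against 1.64 to 85.8 CPM (median 10.7) (adjusted p of 0.102 and 0.0724). D3 was below all 71 others for both. The summed level of the 20 genes was 115, 354, 249.7 and 257 CPM in D3, E1, E4 and H1, against 129 to 3981 CPM with a median of 649.5 in the others.

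Guanylate-binding proteins and related GTPases, which interferon gamma induces to attack intracellular parasites, were lowest in CC040 of all 17 strains for 14 of 14 genes. Their median was -2.84, with 1 lower (0.647% of all genes), 0 higher and all 14 lower at an unadjusted p under 0.05 (16.2% of all genes). Gbp9 (ENSMUSG00000029298, chr5:105077630-105139539) passed, at 4.62 CPM in D3, 8.63 in E1, 8.91 in E4 and 8.94 in H1, against 3.995 to 237 CPM (median 35.2) (-2.65 ± 0.73, adjusted p = 0.0350). One other mouse was below D3 and a further one below the highest CC040 tumour. Gbp3 was at 4.10 CPM in D3, 6.90 in E1, 12 in E4 and 8.46 in H1, against 4.41 to 330.0 CPM (median 34.4), and Gbp6 at 0.220 CPM in D3, 5.13 in E1, 2.46 in E4 and 4.47 in H1, against 1.96 to 199 CPM (median 22.2) (adjusted p of 0.0585 and 0.0543). The summed level was 86.2, 119, 121 and 132 CPM in D3, E1, E4 and H1, against 109 to 3849 CPM with a median of 395 in the others, and D3 was below them all. In the Ifi200 family, whose members sense DNA, 1 of 11 was lower (0.647% of all genes). At an unadjusted p under 0.05 there were 9 lower (16.2% of all genes), and the median was -2.27. Ifi203 (ENSMUSG00000039997, chr1:173920407-173942672) was at 11.4 CPM in D3, 20.02 in E1, 9.22 in E4 and 15.1 in H1, against 10.7 to 311 CPM (median 56.6) (-2.53 ± 0.70, adjusted p = 0.0350). Ifi202b was listed at 0 in D3 and at 0.604, 1.33 and 0.108 CPM in E1, E4 and H1, against a median of 16.04 CPM (adjusted p = 0.0654). The calls of Gbp9 and Ifi203 were lost without any 1 CC040 mouse (adjusted p up to 0.126 without D3 and 0.150 without E4), and neither passed in limma-voom.

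**Figure D2:**
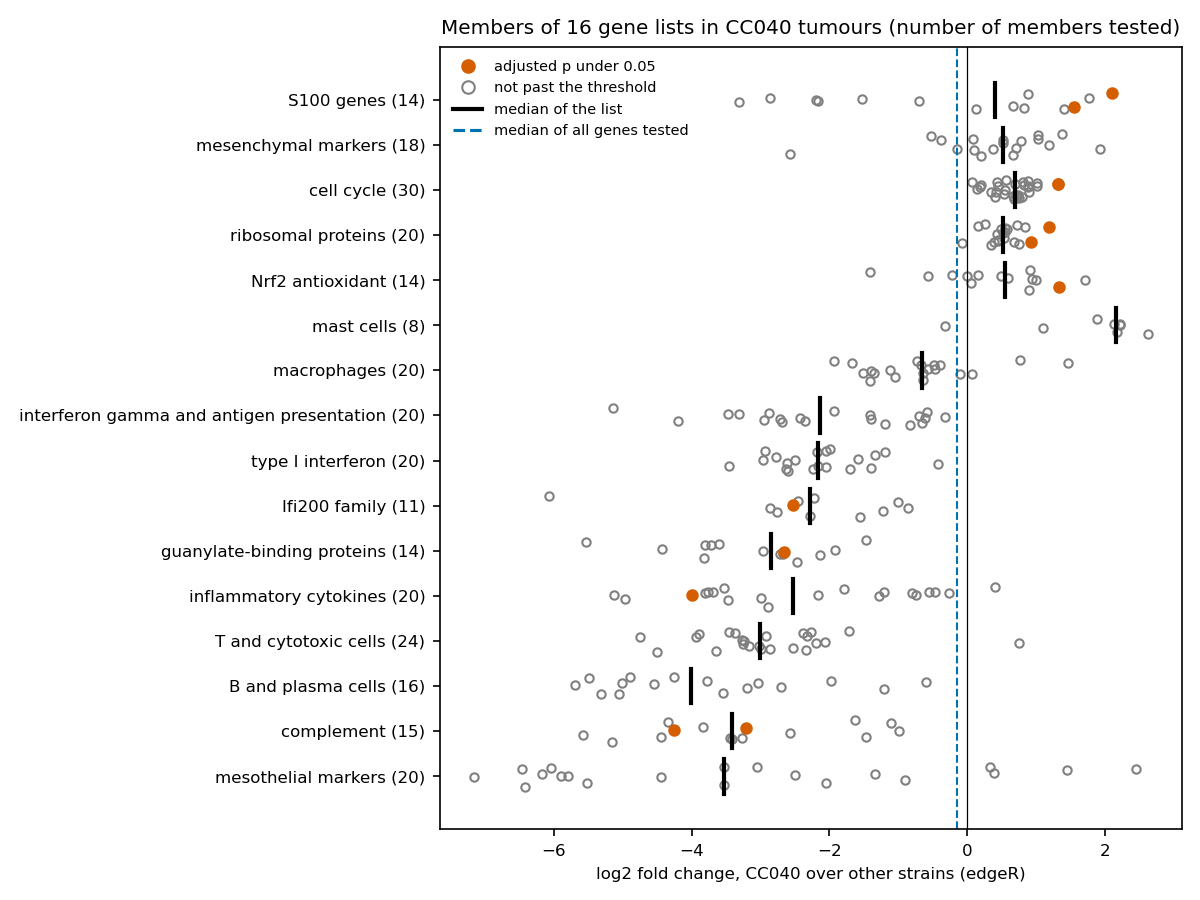
Log2 fold change (CC040 over the other strains, edgeR) of each tested member of 16 gene lists, with filled points past an adjusted p of 0.05, a black bar at the list's median and a dashed line at the median of all 19628 genes. Interferon, lymphocyte, complement and mesothelial lists lie to the left and cell cycle, ribosomal and mast cell lists to the right, with few filled points in each.

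The promoters of these genes were searched for the interferon response element. These lists hold known targets of interferon, so finding the element in them says nothing about CC040 tumours. The core of the interferon-stimulated response element, searched as GAAA, any 2 bases and another GAAA, or as its reverse complement TTTC, any 2 bases and TTTC, within 250 bases before and 50 bases after the start, was in the RefSeq promoters (GRCm38.p6) of 1079 of 27025 genes (3.99%). Of the interferon lists, 7 of 7 guanylate-binding genes with a promoter in the table held it, 7 of 10 Ifi200 genes and 9 of 15 type I interferon genes. Among interferon gamma and antigen presentation genes it was 2 of 14. No S100 gene did (0 of 12), nor any TAM or MET gene (0 of 8), and 1 of 24 cell cycle genes did. Gbp9, Mx1 and Mx2 have no entry in the table. The promoters below are those of the 2 genes of lowest p that hold the element in the guanylate-binding, Ifi200 and type I interferon lists, and that of S100a4, which holds none. The coordinates are Gbp3 (chr3:142559794-142560093, plus strand), Irgm2 (chr11:58214727-58215026, plus strand), Ifi203 (chr1:173942443-173942742, minus strand), Ifi213 (chr1:173599223-173599522, minus strand), Ddx58 (chr4:40239776-40240075, minus strand), Oas1a (chr5:120907476-120907775, minus strand) and S100a4 (chr3:90603520-90603819, plus strand). Capitals mark the element, and overlapping matches run together in Gbp3 and Oas1a.
Gbp3: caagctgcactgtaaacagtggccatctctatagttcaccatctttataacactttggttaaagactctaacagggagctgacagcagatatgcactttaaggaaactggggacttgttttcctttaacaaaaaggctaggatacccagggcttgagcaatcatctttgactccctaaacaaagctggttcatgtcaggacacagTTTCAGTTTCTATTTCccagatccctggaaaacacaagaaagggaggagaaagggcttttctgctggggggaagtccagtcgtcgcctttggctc
Irgm2: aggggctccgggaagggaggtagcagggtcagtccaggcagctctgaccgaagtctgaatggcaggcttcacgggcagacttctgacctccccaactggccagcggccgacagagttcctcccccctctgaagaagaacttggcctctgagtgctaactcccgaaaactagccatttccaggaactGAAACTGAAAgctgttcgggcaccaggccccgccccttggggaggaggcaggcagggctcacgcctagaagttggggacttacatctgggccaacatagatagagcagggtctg
Ifi203: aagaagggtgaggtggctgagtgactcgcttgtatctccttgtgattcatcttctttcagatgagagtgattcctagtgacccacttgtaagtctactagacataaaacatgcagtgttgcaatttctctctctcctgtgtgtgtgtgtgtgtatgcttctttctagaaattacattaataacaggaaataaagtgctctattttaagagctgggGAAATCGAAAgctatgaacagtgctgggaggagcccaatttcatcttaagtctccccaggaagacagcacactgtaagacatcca
Ifi213: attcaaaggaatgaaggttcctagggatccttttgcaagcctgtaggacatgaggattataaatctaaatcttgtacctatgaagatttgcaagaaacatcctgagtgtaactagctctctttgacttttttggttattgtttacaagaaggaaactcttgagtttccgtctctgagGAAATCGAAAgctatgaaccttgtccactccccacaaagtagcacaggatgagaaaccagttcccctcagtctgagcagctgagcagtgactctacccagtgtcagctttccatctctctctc
Ddx58: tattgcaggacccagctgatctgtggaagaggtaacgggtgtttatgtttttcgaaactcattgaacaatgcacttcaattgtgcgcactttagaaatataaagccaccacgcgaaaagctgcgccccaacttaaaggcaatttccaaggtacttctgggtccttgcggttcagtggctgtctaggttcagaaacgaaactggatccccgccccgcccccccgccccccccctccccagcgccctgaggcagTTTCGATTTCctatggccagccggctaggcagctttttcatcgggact
Oas1a: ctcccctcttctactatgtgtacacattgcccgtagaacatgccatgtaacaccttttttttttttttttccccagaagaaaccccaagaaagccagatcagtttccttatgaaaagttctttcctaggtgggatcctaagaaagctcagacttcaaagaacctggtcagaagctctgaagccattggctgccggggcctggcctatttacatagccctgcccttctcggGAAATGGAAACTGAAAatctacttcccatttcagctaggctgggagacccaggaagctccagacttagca
S100a4: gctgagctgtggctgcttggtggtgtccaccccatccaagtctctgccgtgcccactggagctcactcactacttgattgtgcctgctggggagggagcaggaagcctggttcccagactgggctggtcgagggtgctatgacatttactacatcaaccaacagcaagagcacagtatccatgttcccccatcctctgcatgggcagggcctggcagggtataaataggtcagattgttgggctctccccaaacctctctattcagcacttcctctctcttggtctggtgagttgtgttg
A match of these letters describes the sequence and does not show a bound site. The levels beside these sequences were 8.43, 11.4, 3.79 and 11.9 CPM for Irgm2 in D3, E1, E4 and H1, against 3.67 to 267 CPM (median 34.1). Ddx58, the RNA sensor also called RIG-I, was at 15.2, 44.9, 18.9 and 42.7 CPM, against 18.3 to 199 CPM (median 75.3), and Oas1a, which makes oligoadenylate, at 1.39, 7.81, 2.02 and 3.99 CPM, against 1.98 to 116 CPM (median 11.6). D3 was below all 71 others for Ddx58 and Oas1a. None of these passed alone (adjusted p of 0.0710, 0.0763 and 0.0804).

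Fold changes of immune cell genes were mostly below 0 as well. Of 20 interferon gamma and antigen presentation genes 0 passed, all 20 were below 0 and the median was -2.14. Cd74, the invariant chain of MHC class II, was at 27.04 CPM in D3, 314 in E1, 96.2 in E4 and 37.02 in H1, against 49.02 to 10806 CPM (median 644) (-3.47 ± 1.19, adjusted p = 0.0849), whereas the class I genes H2-D1 and B2m were at -0.32 and -0.61. Of 24 T and cytotoxic cell genes 0 passed, 14 were lower at an unadjusted p under 0.05 (16.2% of all genes) and the median was -3.00. Cd3e, a subunit of the T cell receptor complex, was at 0.0733 CPM in D3, 4.36 in E1, 1.14 in E4 and 0.539 in H1, against 0.503 to 197 CPM (median 3.38). Trbc2, another receptor chain, was at 73.6 CPM in D3, which made most of that tumour's summed T cell level of 81.8 CPM. The summed level was 63.2, 37.6 and 57.3 CPM in E1, E4 and H1, against 15.9 to 2151 CPM with a median of 63.03 in the others, so the CC040 sums lay on both sides of that median. Of 16 B and plasma cell genes 0 passed and 12 were lower at an unadjusted p under 0.05 (again beside 16.2%), with a median of -4.01. E1 stood apart from the other 3 tumours in this list, with a summed level of 1040.0 CPM beside 118, 194 and 166 CPM in D3, E4 and H1, against 116 to 19043 CPM with a median of 505 in the other strains. DESeq2 passed 17 of the T cell and 11 of the B cell genes as lower, beside 2451 of all 19628 genes, and limma-voom 0 of each. The lymphocyte counts thus depend on the tool. Among chemokines and cytokines of lymphoid structures 0 of 12 passed (median -2.84).

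Myeloid genes were divided. Of 20 macrophage genes 0 passed and the median was -0.66. Cd68 was at 78.4 CPM in D3, 53.4 in E1, 61.3 in E4 and 61.2 in H1, against 36.1 to 513 CPM (median 118) (adjusted p = 0.124), while Gpnmb and Spp1, genes of lipid-laden and scar-associated macrophages that tumour cells can also express, were at 1.47 and 0.77 on the log2 scale. Of 14 neutrophil genes tested 0 passed (median -2.18), of 12 dendritic cell genes 0 (median -1.74), of 12 natural killer cell genes 0 (median -1.53) and of 12 genes of resident peritoneal macrophages 0 (median -1.46). Summed levels did not all follow these medians. Dendritic cell genes summed to 383, 560, 548 and 681 CPM in D3, E1, E4 and H1, against a median of 435 in the others, and natural killer cell genes to 21.98, 36.4, 38.2 and 33.7 CPM, against a median of 26.7, so E1, E4 and H1 were above the median for both. Neutrophil genes summed to 18.1, 17.1, 35.6 and 27.1 CPM, against a median of 56.9, all 4 below it. Genes of resident peritoneal macrophages summed to 8910, 3905, 4583 and 5958 CPM, against a median of 5497, with D3 and H1 above it. Macrophage genes summed to 8578, 5259, 5238 and 4316 CPM, against a median of 6610, with D3 alone above it. Il1b (ENSMUSG00000027398), the inflammatory cytokine of myeloid cells, passed among 20 cytokines and chemokines (1 lower, beside 0.647% of all genes, median -2.53). It was at 0.733 CPM in D3, 1.38 in E1, 1.20 in E4 and 0.485 in H1, against 0.887 to 123 CPM (median 9.11) (-3.99 ± 1.104, adjusted p = 0.0350), and 2 other mice were below the highest CC040 tumour. Without any 1 CC040 mouse it missed the threshold (adjusted p of at least 0.0831).

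Fold changes of mast cell genes were above 0 for 7 of 8. Of the 8, 0 passed in edgeR, 6 were higher at an unadjusted p under 0.05 (9.48% of all genes) and the median was 2.16. DESeq2 and limma-voom each passed 1 as higher, beside 428 and 315 of all 19628 genes. Tpsb2, a mast cell tryptase, was at 69.7 CPM in D3, 8.89 in E1, 32.9 in E4 and 241 in H1, against 0.245 to 131 CPM (median 4.42) (2.63 ± 0.79, adjusted p = 0.0559), and Cpa3, the mast cell carboxypeptidase, at 34.8 CPM in D3, 3.28 in E1, 14.5 in E4 and 169 in H1, against 0.149 to 109 CPM (median 3.16). H1 was above all other mice for both, D3 and E4 were above the median of the others, and E1 was the lowest CC040 tumour. The summed level was 183, 26.02, 96.3 and 718 CPM in D3, E1, E4 and H1, against 7.89 to 593 CPM with a median of 33.6 in the others. Kitl (ENSMUSG00000019966, chr10:100015630-100100416), the ligand that mast cells need, passed at 187 CPM in D3, 88.7 in E1, 542 in E4 and 292 in H1, against 11.2 to 317 CPM (median 46.5) (1.93 ± 0.47, adjusted p = 0.0147), and lost its call without E4 (adjusted p = 0.232). Its receptor Kit was at -0.32. Whether Kitl and the mast cell genes are linked was not tested.

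**Figure D3:**
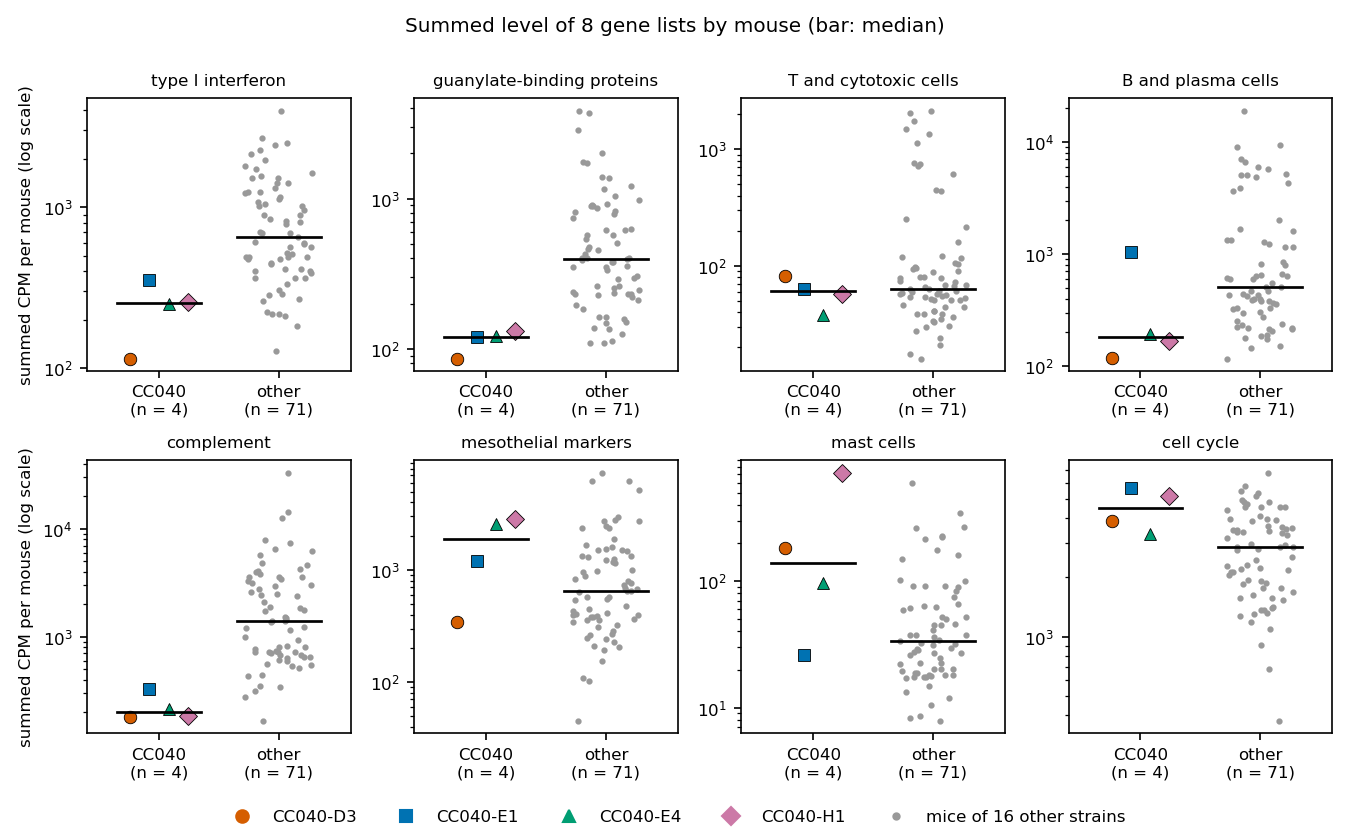
Summed CPM per mouse (log scale) of 8 gene lists, with the 4 CC040 mice on the left of each panel, the 71 other mice on the right and a bar at each median. All 4 CC040 tumours lie low for guanylate-binding proteins and complement, E1 lies apart for B and plasma cells, and H1 is highest of all mice for mast cells.

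Complement genes included 2 that were lower of 15 tested (0.647% of all genes), with 13 lower at an unadjusted p under 0.05 (16.2% of all genes) and a median of -3.42. They were the proteases that start the classical cascade, C1s1 (chr6:124530345-124542359) at 5.57 CPM in D3, 18.8 in E1, 10.6 in E4 and 20.7 in H1, against 13.1 to 2431 CPM (median 125) (-4.26 ± 1.15, adjusted p = 0.0311), and C1ra (chr6:124512405-124523443) at 7.69 CPM in D3, 23.9 in E1, 8.91 in E4 and 10.8 in H1, against 10.3 to 907 CPM (median 79.0) (-3.21 ± 0.87, adjusted p = 0.0319). The 2 genes are neighbours on chromosome 6 and overlapped with the lowest of the other mice. C3, the hub of the cascade, was at 6.45 CPM in D3, 51.1 in E1, 34.9 in E4 and 8.62 in H1, against 20.97 to 20769 CPM (median 429) (-5.57 ± 1.70, adjusted p = 0.0594), with D3 and H1 below all others. Liver makes most complement, and 8 of the 101 other libraries held over 1% of hepatocyte counts, up to 21.1%, against 0.00552% to 0.0213% in the CC040 tumours. Without the 18 libraries that carried over 1% of another tissue the complement median was -3.01 and the same number, 2, passed, while the median of 17 hepatocyte genes was -2.46 without them and -6.74 with them. The part of liver RNA in the complement values of the other libraries was not tested further. Neither C1s1 nor C1ra passed in limma-voom, or without any 1 CC040 mouse (adjusted p of at least 0.0812 and 0.0570).

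Cell cycle and ribosomal genes had fold changes above 0 with few calls. All 30 cell cycle genes had a fold change above 0, with a median of 0.70 (all genes -0.15), 12 were higher at an unadjusted p under 0.05 (9.48% of all genes) and 2 passed (1.6% of all genes). Kif20a, a kinesin of cell division, was at 114 CPM in D3, 166 in E1, 150.4 in E4 and 244 in H1, against 3.56 to 150.9 CPM (median 61.9) (1.32 ± 0.37, adjusted p = 0.0350), and Cdk1, the kinase that drives mitosis, at 109 CPM in D3, 130.1 in E1, 206 in E4 and 114 in H1, against 2.30 to 139.6 CPM (median 53.8) (1.32 ± 0.37, adjusted p = 0.0385). Both lost the call without any 1 CC040 mouse (adjusted p of at least 0.0689 and 0.0905), without any 1 of several other strains, CC059 and KAV among them, and in limma-voom (adjusted p of 0.0637 and 0.0615). Mki67 was at 374 CPM in D3, 720.1 in E1, 305 in E4 and 617 in H1, against 15.4 to 1493 CPM (median 257), inside the range of the others. Of 20 ribosomal protein genes 19 were above 0, with a median of 0.53, and 2 were higher (1.6% of all genes). Rps18 was at 433 CPM in D3, 595 in E1, 681 in E4 and 714 in H1, against 84.9 to 594 CPM (median 245) (1.19 ± 0.30, adjusted p = 0.0175), and Rps14 at 294 CPM in D3, 308 in E1, 726 in E4 and 506 in H1, against 75.9 to 425 CPM (median 227) (0.94 ± 0.25, adjusted p = 0.0317). Rps18 lost its call without H1 (adjusted p = 0.151) and Rps14 without E4 (adjusted p = 0.281). Ribosomal genes have many processed copies, so their counts can be shared between copies. Of 14 antioxidant genes under Nrf2 control 1 was higher (1.6% of all genes), with a median of 0.55. Txnrd1, a thioredoxin reductase, was at 216 CPM in D3, 160.5 in E1, 818 in E4 and 391 in H1, against 64.5 to 595 CPM (median 143) (1.34 ± 0.29, adjusted p = 0.00527), and it rested on E4 (adjusted p = 0.289 without it).

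Other lists gave single calls, beside 1.6% of all genes higher and 0.647% lower. Fst, which binds activin, was called higher among 16 genes of the TGF-beta family at 392 CPM in D3, 21.7 in E1, 24.4 in E4 and 48.3 in H1, against 1.26 to 141 CPM (median 14.1) (2.23 ± 0.57, adjusted p = 0.0220), and D3 alone was above the others, with 0.26 without it. Mbp, a myelin protein also made by some blood cells, was lower among 9 nerve and glia genes (-2.74 ± 0.80, adjusted p = 0.0461). Without any 1 CC040 mouse Mbp missed the threshold (adjusted p of at least 0.0929), as it did in limma-voom (adjusted p = 0.209). It also missed it without strain CC044 (adjusted p = 0.0578) and without libraries with over 1% of another tissue (adjusted p = 0.0558). Of 13 tumour suppressors of mesothelioma 0 passed. Bap1 and Nf2 were at 0.12 and 0.20 on the log2 scale. Cdkn2a, the cell cycle inhibitor often deleted in mesothelioma, was at 0.147 CPM in D3, 9.54 in E1, 2.53 in E4 and 0.323 in H1, against 0.215 to 566 CPM (median 4.29), and Mtap, which lies beside it, at 3.00 CPM in D3, 25.6 in E1, 3.66 in E4 and 2.16 in H1, against 2.93 to 574 CPM (median 23.5) (-2.77 ± 1.16, adjusted p = 0.144). Both genes were low together in D3, E4 and H1 and higher in E1, and DNA copies were not measured. In none of the lists for matrix and fibroblasts (20 genes, median -0.44), matrix proteases (17, -0.15), smooth muscle (10, -1.80), endothelium (14, -0.48), hypoxia and glycolysis (18, -0.16), p53 (16, 0.25) and YAP targets (14, -0.06) did a gene pass.

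The genes called higher were uneven over the chromosomes. Chromosome 18 held 40 of its 504 tested genes among those higher (7.94%) and chromosome 10 held 43 of 917 (4.69%), against 1.6% of all genes. For each mouse, the log2 difference of every gene with at least 10 CPM from the median of the 71 other mice was computed, and its median over a chromosome was taken, a view chosen after the data were seen. On chromosome 18 it was 0.05 in D3, -0.07 in E1, 0.73 in E4 and 0.50 in H1, against -0.49 to 0.33 in the others. E4 and H1 were above all 71 and D3 and E1 near 0. The group difference was 0.30 (exact permutation test over 1215450 regroupings, two-sided, p = 0.00392, adjusted p = 0.0466 over 20 chromosomes), and without E4 or without H1 it was 0.16 and 0.24 (adjusted p of 0.595 and 0.236). Chromosomes 1 and 14 were lower by the same test, by 0.18 and 0.21 (adjusted p = 0.0466 for each). The test regroups single mice without regard to strain, so its p does not measure CC040 against the spread between strains. Chromosome 14 rested on D3 at -0.59, below the -0.37 to 0.25 of the others, with E1, E4 and H1 at -0.07, -0.13 and -0.05, and without D3 the adjusted p was 0.414. On chromosome 1, E4 at -0.35 was below all others, and without any 1 CC040 mouse the adjusted p was 0.0612 or more.

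**Figure D4:**
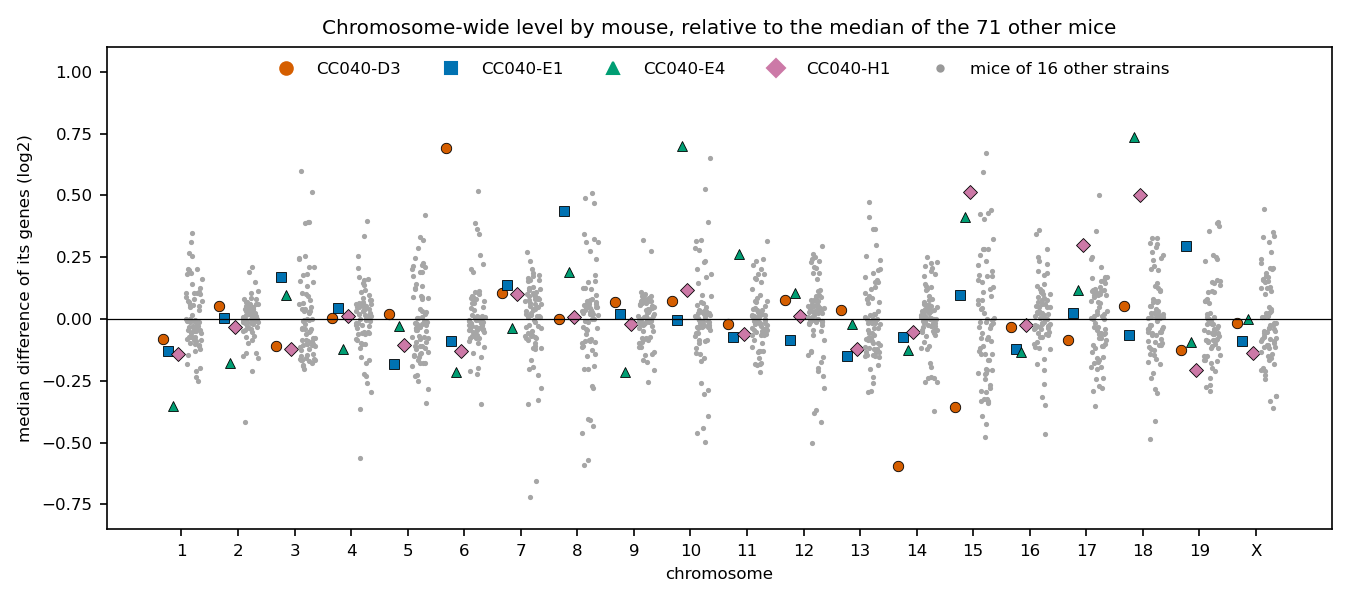
Median log2 difference of the genes of each chromosome (at least 10 CPM) from the median of the 71 other mice, per mouse, with the 4 CC040 mice as coloured symbols left of the other mice. E4 stands out on chromosomes 10 and 18, H1 on 18, and D3 on 6 and 14, each by 0.50 or more on the log2 scale.

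Single tumours stood apart on further chromosomes. E4 was at 0.70 on chromosome 10, where the others reached 0.65, and D3 at 0.69 on chromosome 6, where they reached 0.52. Along chromosome 18 in windows of 20 genes, all 14 windows were above 0 in E4 (0.48 to 0.96) and in H1 (0.29 to 0.70). On chromosome 6 all 28 windows of D3 were above 0. Chromosome 10 of E4 was split: the first 9 windows, from Plekhg1 to Dna2 (chr10:3740364-62974185), ran from -0.49 to 0.13, and the other 17, from Rufy2 to Tmem198b (chr10:62980223-128804370), from 0.73 to 1.52, with 15 of them above every other mouse. The step falls at the border of these windows, so its place is known to about a window. With each mouse's shift per chromosome taken out, 291 genes were higher and 127 lower over the genome, 227 and 114 of them shared with the first counts, and the calls on chromosomes 18 and 10 became 10 and 12 of those higher. In the fit without E4, 1 gene was called higher on chromosome 10 and 6 on chromosome 18, and in the fit without H1 there were 7 on chromosome 18. Several genes described above lie there: Phax, Tshz1, Kif20a, Rps14 and Dmxl1 on chromosome 18, and Kitl, Cdk1 and Txnrd1 on chromosome 10. Kitl and Txnrd1 lie beyond the step. Cdk1 lies in the window next to the border, so its side of the step is uncertain. With the shifts out, Phax was at 0.80 (adjusted p = 3.17e-05), Tshz1 at 1.43 (0.00736) and Kitl at 1.66 (0.0278), which passed. Kif20a at 1.04, Cdk1 at 1.09 and Rps14 at 0.53 did not (adjusted p of 0.0915, 0.0796 and 0.209). These are levels of RNA, and the number of chromosomes in the tumour cells was not measured.

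**Figure D5:**
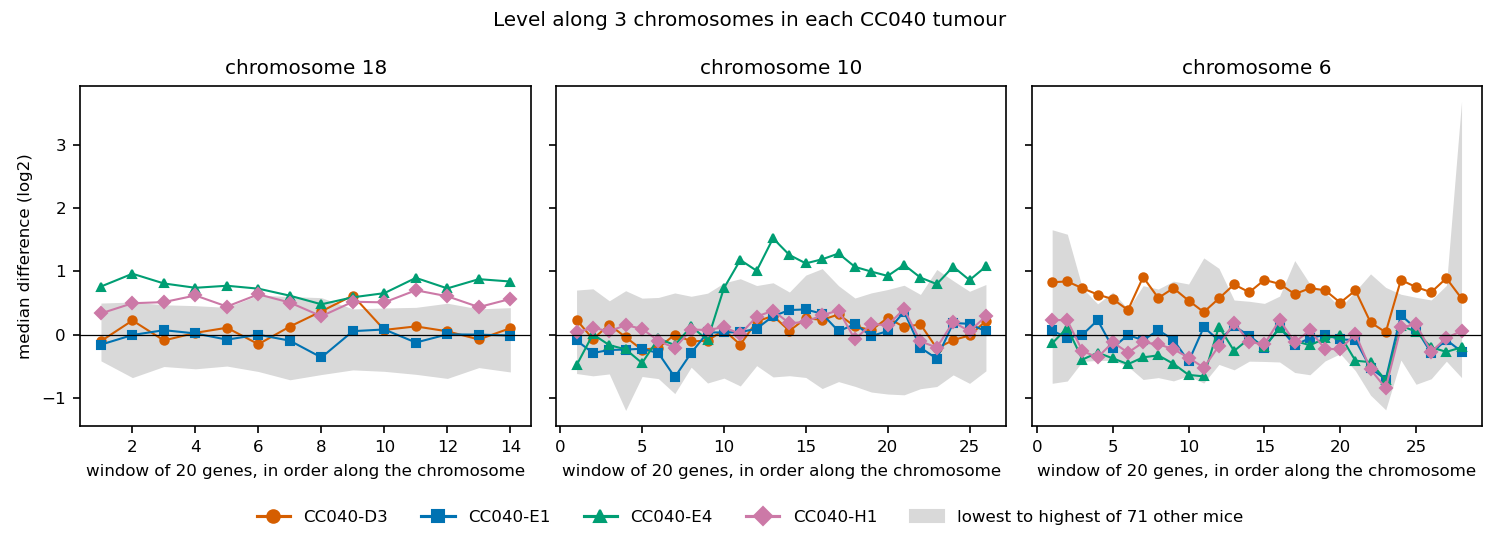
Median log2 difference per window of 20 genes, in gene order, along chromosomes 18, 10 and 6 for each CC040 tumour, with the range of the 71 other mice in grey. E4 and H1 run above 0 along all of chromosome 18, E4 steps up after window 9 of chromosome 10, and D3 runs above 0 along chromosome 6.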

How the data were processed

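RNA of 167 tumours was sequenced from strand-specific mRNA libraries, per the labels' protocols. The deposited table holds estimated counts of reads per gene (36118 genes), made by the authors with kallisto 0.46.1 on GRCm38, per the submitters' processing notes, which also name DESeq2 and DESeq without their role. A second deposited table holds the same values and was not used. Columns were tied to samples by title and strain label, 2 of them to a strain only, and 6 libraries that the selection rule calls doubtful in strain were left out (with them, 356 genes were higher and 188 lower). The estimated counts were deposited as whole numbers and used as such. The tumours of a mouse were summed, and genes with too few counts were left out by edgeR's filterByExpr, which kept 19628. Depth was 13879373 to 25074252 counts per CC040 mouse and 11138491 to 91935422 per mouse of the other strains. Thus 3 counts in a CC040 tumour are 0.120 to 0.216 CPM before TMM scaling, whereas the levels in the text are after it. This limit covers counting error only. The labels do not say whether mice of a strain were litter mates.

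CC040 was compared with the 71 other mice by edgeR 4.0.16 (TMM, quasi-likelihood test, Benjamini-Hochberg adjustment over all genes tested, threshold 0.05), and with each of the 16 strains in a fit with strain as a factor. The median biological coefficient of variation was 62.3%, and 55.3% within strains. On simulated data with 50 genes changed in each class, the first test recovered 33 of those raised and 38 of those lowered by 2 on the log2 scale, and 16 and 12 of those changed by 1. The test against every strain recovered 20 of those raised and 17 of those lowered by 2, and 1 and 0 of those changed by 1. Few genes passing against every strain thus says little about moderate changes. Alternatives used limma 3.58.1 (voom) and DESeq2 1.42.0 in R 4.3.3. The text names the markers, the 12 genes of lowest p in each direction (a change of at least 1 on the log2 scale, at least 5 CPM in the higher group mean, no predicted gene), genes that passed against every strain at that level, and called members of 43 gene lists. Others were chosen as examples of their list or after their values were seen, as the text says. The members and lists were chosen with earlier results of these data known. The chromosome medians, the fit with chromosome-wide shifts taken out and the fit with the Y-linked level were chosen after seeing the data.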

Additional observations from a re-analysis of the deposited data

Results flagged for a closer look

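In 61 quantities (41 named genes and 20 chromosome medians), 7 had 1 CC040 tumour far from the other 3 by Dixon's test, which chance flags in about 1 of 20 groups of this size. Dmp1 was at 820.0 CPM in D3 and 1.01 to 3.45 CPM in the other CC040 tumours, and Tac1 at 108 CPM in D3 and 0 to 0.0863 CPM in the others. Gbp9 was at 4.62 CPM in D3 and 8.63 to 8.94 CPM in the others. Pbx4 was at 1.67 CPM in H1 and 14.3 to 18.7 CPM in the others. The chromosome medians on the log2 scale that stood apart were those of chromosome 6 at 0.69 in D3 (-0.21 to -0.09 in the other CC040 tumours), chromosome 14 at -0.59 in D3 (-0.13 to -0.05) and chromosome 11 at 0.26 in E4 (-0.07 to -0.02).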

How the results depend on the processing

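The counts of 315 genes higher and 127 lower became 202 and 109 with RLE size factors, 252 and 78 with no filter, 199 and 101 from a mean of 1 CPM, 315 and 42 in limma-voom, 428 and 2451 in DESeq2, and 1523 and 643 with strain as a factor. They were 23 and 2 within the high range of library numbers, 105 and 9 within the low range, 79 and 5 in mice above median survival, 208 and 80 with the first tumour of each mouse, and 415 and 279 against all other mice of the series. Leaving out 1 CC040 mouse gave 88 to 169 higher and 10 to 39 lower, and leaving out 1 other strain 192 to 370 and 105 to 188 (least higher without CC059, 192, MEE, 198, and KAV, 201). The share of lower calls thus rests on the tool, and the cause was not tested. Other settings stayed within 1.5 times. Genes that passed against every strain numbered 5 higher in limma-voom in place of 2, and 0 to 2 without 1 CC040 mouse. The 1 lower gene became 0 from a mean of 1 CPM, 0 with library number as a covariate and 0 in limma-voom, and 0 to 2 without 1 CC040 mouse.

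Of 1517 values of named genes under the alternatives, 1261 kept direction and call, 248 kept direction and lost the call, 2 gained it (Mx2) and 6 reversed. These were Dmp1 (-1.47 in the low range of library numbers and -1.49 without D3), Tac1 (-3.61 and -4.24), Dmxl1 (-0.15 without E4) and Fst (-0.20 in the low range). Over all fits without 1 CC040 mouse or 1 strain the log2 fold change ran from -1.49 to 5.63 for Dmp1, -4.24 to 5.76 for Tac1 and -0.15 to 2.23 for Dmxl1. RLE scaling moved the median of all genes by -0.06. No paired analysis was possible because the replicate numbers only follow accession order.

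With 4 CC040 mice the calls depend on single tumours. Whole tumours differ in their content of other cells, and low counts in CC040 tumours limit the fold changes of sparse genes.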

Other observations

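None of the 4 CC040 tumours held over 1% of counts from hepatocytes, pancreas or the other tissues listed, while 18 of the 101 other libraries did. Some of their summed levels still lay above the median of the other strains. In E1, 9 genes of the reproductive tract, of which 8 were tested, summed to 617 CPM, beside 1.099 CPM in D3 and 3.6 CPM or less in E4 and H1. The other strains had 0.857 to 227229 CPM with a median of 3.81. Pancreatic acinar genes summed to 747 CPM in D3 and 183, 26.8 and 24.2 CPM in E1, E4 and H1, against a median of 26.2 CPM. Of 7 erythroid genes 0 passed (median 0.17), and their sum was highest in E4 at 1486 CPM, beside 335, 339 and 113 CPM in D3, E1 and H1, against a median of 198 CPM. None passed among 17 hepatocyte genes (median -6.74), 16 of pancreas (-5.52), 14 of skeletal muscle (-5.32), 11 of adipocytes (-3.12), 8 of the reproductive tract (-4.44), 7 of intestine (-2.22), 4 of kidney and adrenal (-2.35), 4 sex-linked genes (0.20) and 12 genes with structural variants among the founder strains (-1.24), the values in parentheses being median log2 fold changes. These medians depend on the 18 libraries with over 1% of another tissue. Without those libraries the reproductive tract median was 0.59, so its sign changed. The medians were then -2.46 for hepatocytes, -2.33 for pancreas, -3.48 for skeletal muscle and -2.72 for adipocytes. Those of intestine and of kidney and adrenal were -1.51 and -2.16. Of 18 growth factor receptors and ligands, Kitl alone passed as higher (1.6% of all genes), with a median of -0.34.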
